A study of Rattus norvegicus with 59 samples.

Results

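The regions described here are stretches of the rat genome in which 2 histone marks of silent chromatin part company: dimethylation of lysine 9 of histone H3 (H3K9me2) was above its median and trimethylation of lysine 27 of histone H3 (H3K27me3) was below its median. They were 730 of the 6171 genomic bins for which H3K9me2 was deposited. For each bin the H3K9me2 density was the mean of the control and sham-operated values in log2 RPM (read counts scaled to the size of the library) less the log2 of the length in kb. The H3K27me3 density was the mean RPM per kb of the H3K27me3 bins lying over it, weighted by overlap, averaged over the same 2 groups and then put on the log2 scale. Bins with under 50% of their length covered by H3K27me3 bins (15 bins) were not classified, and the medians were taken over the other 6156. The regions were thus chosen by the measured values of both marks in control and sham-operated rats, and their high H3K9me2 and low H3K27me3 in those groups are a description and not a finding.

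All groups were male rats of the Sprague Dawley strain, and left ventricle nuclei were sorted on PCM1, a centriolar satellite protein used to mark cardiomyocyte nuclei. Control rats of about 280 g at the start stayed out of the training programme, and exercise rats of the same weight ran intervals on an inclined treadmill for 6 weeks. Banded aorta rats of about 170 g had a suture tied around the ascending aorta and were retained after 6 weeks where hypertrophy was detectable without failure, and sham-operated rats of about 170 g had the same operation without the tie. Control and sham-operated rats thus differed in start weight, surgery and experiment. The labels list 4 chromatin samples for each group and mark, but the tables held 1 value per group, mark and bin, so no difference below has a replicate error or a test, and read depth is unknown. Gene IDs in the RNA tables were not paired here with names or with positions on the bins, so RNA of these regions and the cardiomyocyte markers of the sort were not analysed here. No sequence is shown, because no genome of the build of the files was used here.

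H3K9me2 is laid down over broad domains by the methyltransferases G9a and GLP and is common in gene-poor chromatin at the nuclear periphery. H3K27me3 is laid down by Polycomb repressive complex 2 and is best known for holding developmental genes silent. The marks are written by different enzymes, so a region can carry one without the other.

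Before the regions are described, a property of the columns matters for all that follows. When the values of a mark were sorted within each group, any pair of groups differed at the same rank by a median of only 0.000108 to 0.000324 log2, and each column summed to 0.967 M RPM. A mark that changed everywhere would not show in such values, and a difference in one bin is a difference in its rank. The longest bins, at the top of the RPM ranks, differed least: the H3K9me2 range over the 4 groups had a median of 0.075 log2 in the 92 regions of 1 Mb or more, against 0.26 log2 in the 148 regions under 100 kb. The sham-operated column of H3K9me2 also stood apart from the control column. Over 6156 bins, which share borders and scaling, Pearson's r of the H3K9me2 densities was 0.98 between control and exercise and 0.86 between sham-operated and banded aorta, but 0.41 between control and sham-operated. For H3K27me3 every pair of groups had an r of at least 0.96.

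The 730 regions covered 370.0 Mb, or 14.6% of the classified length, on all 20 chromosomes of the tables. Their H3K9me2 density had a median of -1.29 log2 RPM per kb (0.409 RPM per kb), with a 10th to 90th percentile of -1.38 to -1.15, just above the dividing median of -1.39. Their H3K27me3 density had a median of -1.80 log2 RPM per kb (0.287 RPM per kb; 10th to 90th percentile -2.26 to -1.56), below the dividing median of -1.49. In linear terms the typical region was 1.07-fold over the H3K9me2 median and 1.24-fold under the H3K27me3 median. The departure on the H3K9me2 side was therefore small in fold. H3K9me2 also varied less than H3K27me3 over all classified bins, so the folds are not on one scale. The 10th to 90th percentile there was -1.79 to -1.05 for H3K9me2 and -2.26 to -0.34 for H3K27me3. Only 18 of the 616 bins in the densest 10% for H3K9me2 were among the 730 regions (2.92% of that set, 2.47% of the regions). Of the 616 bins in the sparsest 10% for H3K27me3, 71 were (11.5% of that set, 9.73% of the regions). The other classes held 2348 bins high in both marks, 2348 low in both and 730 with low H3K9me2 and high H3K27me3.

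**Figure D1:**
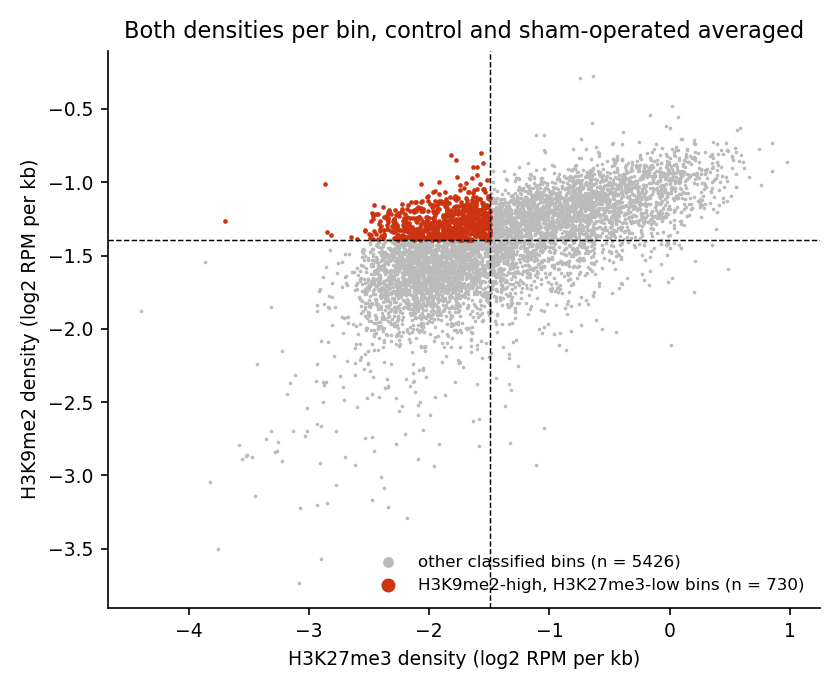
H3K9me2 density against H3K27me3 density, both in log2 RPM per kb with control and sham-operated averaged; each point is a bin and the dashed lines are the 2 medians. The 730 chosen bins (red) fill the upper left field, mostly close to the H3K9me2 line at -1.39, next to the other classified bins (grey).

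Regions lying at the dividing lines differed little from their neighbours across them. The nearest 3 inside the H3K9me2 median had densities of -1.39 (chromosome 1 from 84715001 to 85285001, chromosome 6 from 110345001 to 110415001, chromosome 1 from 242765001 to 242865001), and the nearest 3 outside were also at -1.39 (chromosome 4 from 178645001 to 178935001, chromosome 4 from 52305001 to 55005001, chromosome 3 from 128235001 to 128325001). At the H3K27me3 median, the nearest 3 inside were at -1.49 (chromosome 19 from 2225001 to 3385001, chromosome 6 from 93305001 to 94015001, chromosome 2 from 192375001 to 192485001). The nearest 3 outside it were at -1.49 too (chromosome 16 from 64395001 to 64755001, chromosome 3 from 39635001 to 40045001, chromosome 7 from 13325001 to 13565001). Coordinates are those of the files, and no source used here names their genome build.

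Of the 10 regions with the strongest discordance, most were shorter than 100 kb. A large excess of H3K9me2 over H3K27me3 density was not particular to the regions. Bins low in both marks reached 2.52 log2, with a median of 0.36 against 0.54 in the regions. The largest excess among the regions, 2.44 log2, lay on chromosome 13 from 74545001 to 74585001 (40 kb). There H3K9me2 was -1.21 log2 RPM per kb in control, -1.31 in sham-operated, -1.15 in banded aorta and -1.34 in exercise rats, while H3K27me3 was -3.61, -3.80, -3.79 and -3.52 in the same order. All 4 groups were thus high in one mark and very low in the other. On chromosome 9 from 4885001 to 4965001 (excess 1.86), H3K27me3 was even across the groups (-2.86, -2.88, -2.85 and -2.90), but H3K9me2 was higher in control (-0.75) and exercise (-0.94) than in sham-operated (-1.27) and banded aorta rats (-1.05). The opposite order was seen on chromosome 7 from 76195001 to 76655001 (excess 1.24), where H3K9me2 was -1.45 in control and -1.45 in exercise but -1.01 in sham-operated and -0.93 in banded aorta rats. The last region met the rule in the surgery groups alone. The other 7 of the 10 largest excesses, from 1.22 to 1.51, lay on chromosome 6 from 107525001 to 107585001, chromosome 8 from 3165001 to 3205001, chromosome 12 from 19605001 to 19655001, chromosome 5 from 94025001 to 94445001, chromosome 3 from 138025001 to 138275001, chromosome 1 from 260245001 to 260275001 and chromosome 5 from 107505001 to 107585001. Each of the 10 lay within a single H3K27me3 bin.

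At the other extreme, long domains carried much of the territory at mild discordance. The 92 regions of 1 Mb or more held 55.0% of the length. Bins of 1 Mb or more held a like share of the length of bins low in both marks (55.8%). That share was 34.5% for bins high in both and 45.7% over all classified bins. The 92 regions had a median excess of 0.39 log2, against 0.59 in the regions under 100 kb. They made up 17.1% of all classified bins of 1 Mb or more, while the regions made up 9.93% of the bins under 100 kb. The longest, 11660 kb on chromosome 15 from 89395001 to 101055001, had an H3K9me2 density of -1.38 in every group, at the edge of the rule, and an H3K27me3 density of -1.95 in control, -1.82 in sham-operated, -1.75 in banded aorta and -1.93 in exercise rats. The next, 9550 kb on chromosome 4 from 106605001 to 116155001, was at -1.33 for H3K9me2 in every group and between -1.61 and -1.59 for H3K27me3. In columns with nearly the same sorted values, a bin that keeps its rank keeps its value. The H3K9me2 range over the 4 groups was 0 in each of the 5 longest classified bins. Equal H3K9me2 values in these 2 regions are therefore not read as constancy of the mark. The median length of 220 kb was close to that of bins high in both marks (200 kb) and low in both (180 kb).

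Within the regions H3K27me3 was not even. Of the 730, 468 (64.1%) lay over 2 or more H3K27me3 bins, up to 25, and among these the densest and sparsest H3K27me3 bin differed by a median of 0.93 log2. The same median was larger in every other class: 1.06 in bins high in both marks, 1.12 in bins low in both and 1.25 in bins with the opposite discordance. Over all classified bins it was 1.09, so such unevenness was not particular to the regions. Stretches at or above the H3K27me3 median were present in 327 regions (44.8%) and made up 16.9% of the covered length, against 8.67% in bins low in both marks and 85.3% in bins high in both. Many regions were therefore low in H3K27me3 on average and held denser parts.

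Most of the regions had no other member next to them. Of the runs of abutting members, 537 were single bins, 56 were pairs, 23 had 3 members and 3 had 4. The longest run of more than 1 member spanned 6.09 Mb on chromosome 11 from 8975001 to 15065001 and held 3 members. The runs of 4 lay on chromosome 1 from 230205001 to 230925001, chromosome 7 from 92435001 to 95535001 and chromosome 9 from 69605001 to 70635001. Abutting members can lie over the same H3K27me3 bin and then share its density. The last pair in the run on chromosome 7 did so, with -2.47 log2 RPM per kb in control rats for both. Abutting members are therefore not independent in H3K27me3. Of the 1460 sides of the regions, 37.7% met a bin low in both marks, 29.7% a bin high in both, 15.2% another member and 4.45% a bin with the opposite discordance. Members were 11.9% of all classified bins, and they were met by 9.22% of the sides of bins high in both marks, by 11.7% for bins low in both and by 4.45% for bins with the opposite discordance. For bins high in both marks, 11.8% of the sides met a bin with the opposite discordance. Among the 556 regions with classified bins abutting on both sides, 253 were above both neighbours in H3K9me2, 202 lay between them and 101 were below both. In H3K27me3, 202 were below both neighbours, 225 lay between them and 89 were above both, and the others fell in none of these sets. The regions were chosen for high H3K9me2 and low H3K27me3, so these counts are a description and not a finding.

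Chromosomes differed in how much of them these regions took up. The highest shares of classified length were on chromosomes 18 (23.1%), 11 (22.5%) and 9 (20.6%), and the lowest on chromosomes 12 (6.75%), 1 (7.51%) and 13 (7.79%). On chromosome 15 the share of 19.9% was 21.6 Mb, of which the longest region alone was 11660 kb, so a few long bins set such values. Regions within 5 Mb of the first or last bin of a chromosome were 48 of the 730 (6.58%), against 9.37% of all classified bins and 11.4% of bins with the opposite discordance. Bins are not replicates, and these shares carry no test.

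**Figure D2:**
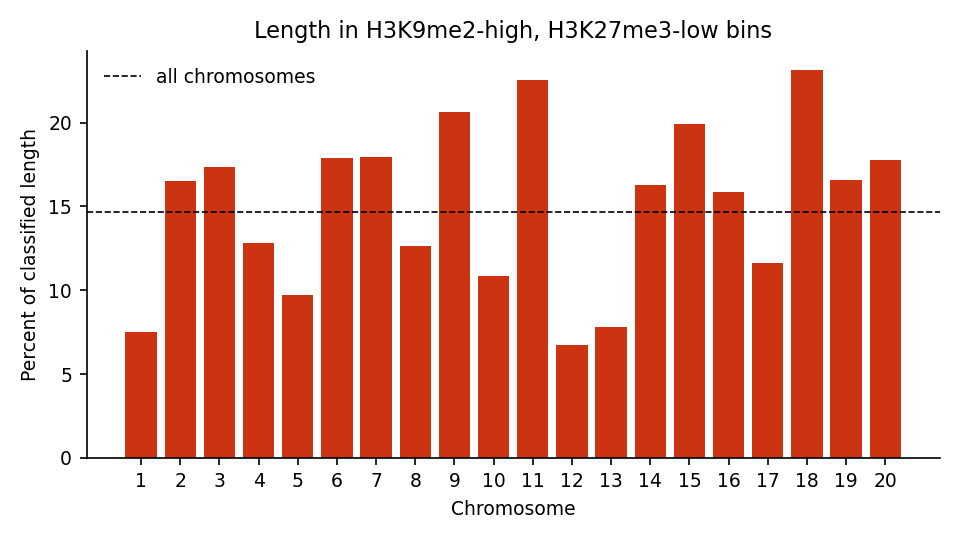
Percent of each chromosome's classified length lying in the 730 regions; the dashed line is the share over all chromosomes. Chromosomes 18, 11 and 9 stand highest at 23.1%, 22.5% and 20.6%, and chromosome 12 is lowest at 6.75%.

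The banded aorta and exercise columns were not used to choose the regions, and they showed whether the class held there. When densities and medians were taken in 1 group at a time, 642 of the 730 regions (87.9%) met the rule in banded aorta rats and 471 (64.5%) in exercise rats. Of those used by the rule, 600 (82.2%) met it in sham-operated rats and 449 (61.5%) in control rats. In exercise rats the losses were mostly in H3K9me2, since 208 regions were not above the H3K9me2 median and 52 were not below the H3K27me3 median. In banded aorta rats those numbers were 29 and 60. They were 254 and 28 in control rats and 91 and 45 in sham-operated rats. The H3K9me2 losses were thus present in control rats without training. Bins with the opposite discordance had similar shares, with 85.1% keeping their class in banded aorta and 66.4% in exercise rats. Bins high in both marks kept theirs in 78.2% and 96.1% of cases, and bins low in both in 78.3% and 94.5%. All classes share bin borders and columns, and these differences between classes were not tested.

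The rule was met in each of the 4 groups by 284 regions (38.9%), which covered 168.8 Mb on 20 chromosomes. Their H3K9me2 density was a median of -1.23 log2 RPM per kb and their H3K27me3 density -1.78. Outside the 730, 22 bins met the rule in 3 groups and 0 in all 4. The choice of regions fixed that 0. With these medians, a bin that meets the rule in control and in sham-operated rats also meets it in their average. The longest of the 284 were the 9550 kb bin on chromosome 4, chromosome 9 from 97475001 to 101595001 and chromosome 3 from 25785001 to 29735001. A further 173 regions (23.7%) met the rule in sham-operated and banded aorta rats alone, and 38 (5.21%) in control and exercise rats alone. The remainder were split over other combinations, and 5 regions met the rule in no single group although they met it in the average.

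The number of such bins in the genome differed between the experiments. Taken alone, control rats had 549 bins high in H3K9me2 and low in H3K27me3 (8.92% of 6156) and exercise rats 577 (9.37%), while sham-operated rats had 1376 (22.4%) and banded aorta rats 1141 (18.5%). In sham-operated rats 600 of the 1376 were among the regions. Of the others, 744 were low in both marks by the average, 28 were high in both and 4 had the opposite discordance. In banded aorta rats 642 of the 1141 were among the regions. Of the others there, 468 were low in both marks by the average, 25 were high in both and 6 had the opposite discordance. Most of the bins outside the regions were thus low in both marks by the average. Over all bins, 476 met the rule in both surgery groups and in neither other group, and 84 the reverse. The control and sham-operated values that make up the average are thus unlike each other, and the medians of the banding and training comparisons below are also given for regions chosen in 1 of them.

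**Figure D3:**
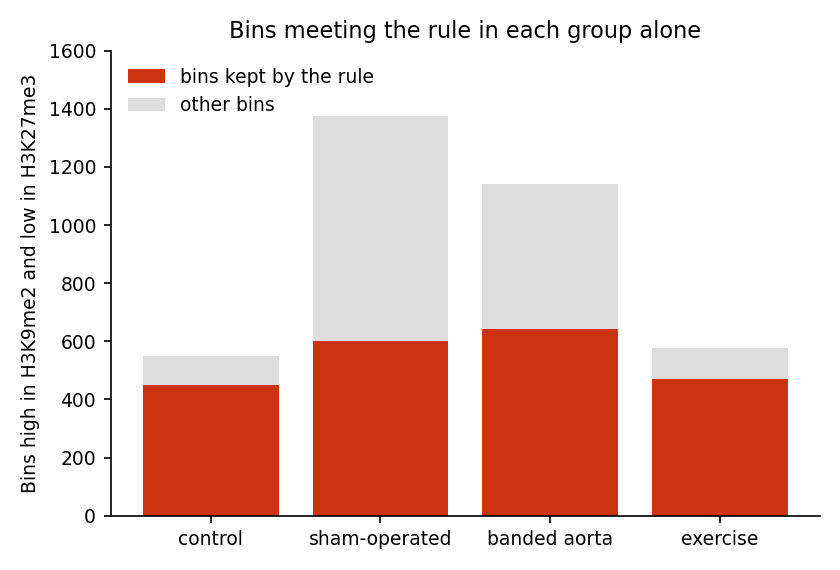
Number of bins (of 6156) above the H3K9me2 median and below the H3K27me3 median of each group taken alone, split into bins among the 730 regions (red) and others (grey). The sham-operated and banded aorta bars reach 1376 and 1141, the control and exercise bars 549 and 577.

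The same contrast was seen when bins were ordered by H3K27me3 density (control and sham-operated averaged). In control rats the median H3K9me2 density went from -1.87 log2 RPM per kb in the 10% of bins lowest in H3K27me3 to -0.73 in the 10% highest, and in exercise rats from -1.85 to -0.81. In sham-operated rats it went from -1.50 to -1.36 and in banded aorta rats from -1.52 to -1.27. Pearson's r between the marks over 6156 bins was 0.79 in control, 0.78 in exercise, 0.22 in sham-operated and 0.34 in banded aorta rats. With bins of 100 kb or more (4665 bins) it was 0.79, 0.79, 0.26 and 0.38. The spread of H3K9me2 densities over bins was also narrower in the surgery groups (SD 0.28 in sham-operated, 0.29 in banded aorta) than in control (0.48) and exercise rats (0.44). H3K27me3 densities were also narrower in the surgery groups, with an SD of 0.66 in sham-operated and 0.67 in banded aorta rats. It was 0.83 in control and 0.88 in exercise rats. Bins share library, borders and base composition, so these coefficients are descriptions. Start weight, surgery and experiment cannot be told apart here, and the part of antibody yield or depth was not tested.

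**Figure D4:**
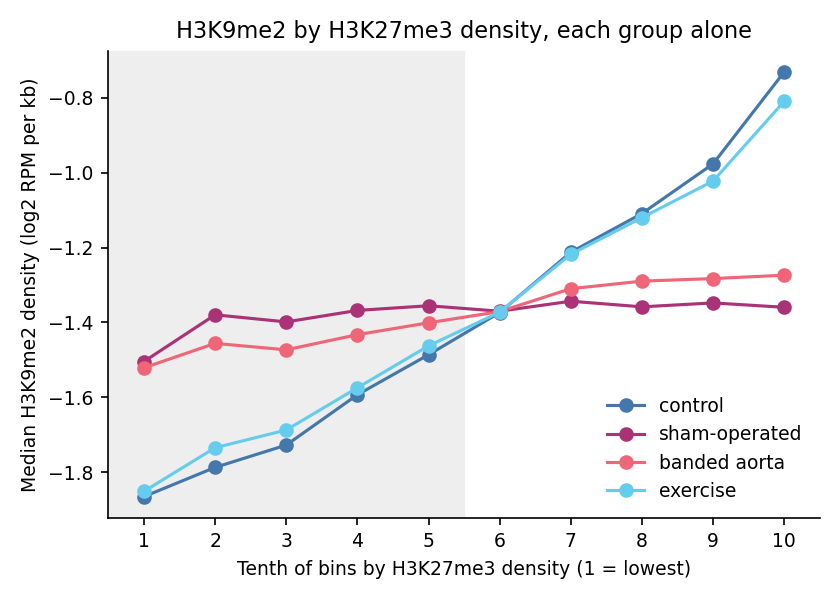
Median H3K9me2 density (log2 RPM per kb) in 10 equal sets of bins ordered by H3K27me3 density (control and sham-operated averaged), 1 line per group; the shaded sets are those below the H3K27me3 median. The control and exercise lines climb from about -1.87 and -1.85 to -0.73 and -0.81, and the sham-operated and banded aorta lines stay between -1.52 and -1.27.

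Within the 730 regions, H3K9me2 had a median of -1.33 log2 RPM per kb in control, -1.32 in exercise, -1.21 in sham-operated and -1.21 in banded aorta rats. H3K27me3 had a median of -1.91 in control, -1.94 in exercise, -1.72 in sham-operated and -1.72 in banded aorta rats. For both marks the surgery groups were the higher pair. Sham-operated minus control, H3K9me2 was over 0.5 log2 higher in 68 regions and lower in 10 (10.7% in all), where 26.6% of all classified bins did so (14.2% higher, 12.4% lower). The median difference was 0.087 log2, against -0.32 in bins high in both marks and 0.33 in bins low in both. H3K27me3 was over 0.5 log2 higher in sham-operated rats in 44 regions and lower in 1 (6.16% in all), where 3.04% of all classified bins differed so (2.71% higher, 0.325% lower). Its median difference was 0.18 log2, against 0.20 in bins low in both marks. Both columns were used to choose the regions, so nothing is read from these counts.

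The split by baseline shows how the average was reached. The 342 regions that met the rule in control and in sham-operated rats each taken alone had median H3K9me2 densities of -1.27 in control, -1.22 in sham-operated, -1.17 in banded aorta and -1.25 in exercise rats. The 258 that met it in sham-operated but not control rats had -1.49 in control and -1.43 in exercise rats but -1.15 in sham-operated and -1.21 in banded aorta rats, and 242 of them met it in banded aorta and 71 in exercise rats. The 107 that met it in control but not sham-operated rats had -1.25 in control, -1.28 in exercise, -1.40 in sham-operated and -1.26 in banded aorta rats. The control and sham-operated values defined these sets, so the medians in those 2 groups are a description and not a finding.

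Aortic banding was compared with the sham operation to ask how pressure overload bears on the marks in these regions. Banded aorta minus sham-operated, H3K9me2 had a median difference of 0.026 log2 (10th to 90th percentile -0.15 to 0.17), beside 0.013 over all classified bins, and was above 0 in 425 of the 730 regions (58.2%, against 53.8% of all classified bins). None passed 0.5 log2 (0 of 730), where 0.146% of all classified bins did (0.0325% higher, 0.114% lower). The sign of this median followed the choice of regions. Chosen in control rats alone, which this comparison does not use, the 549 regions had a median of 0.068, the same as the 2529 bins high in both marks (0.068), while the bins low in both had -0.077. Chosen in sham-operated rats alone, whose column is one side of the comparison, the 1376 regions had -0.088. The largest positive differences were on chromosome 1 from 163395001 to 163465001 (-1.50 log2 RPM per kb in sham-operated, -1.09 in banded aorta rats, difference 0.40), chromosome 14 from 23725001 to 23755001 (0.39) and chromosome 3 from 45145001 to 45185001 (0.37). In the first, control rats were at -1.06, near the banded aorta value, and the sham-operated value alone was low. The largest negative differences were on chromosome 12 from 44855001 to 44895001 (-0.85 in sham-operated, -1.32 in banded aorta rats, difference -0.47), chromosome 4 from 105215001 to 105255001 (-0.36) and chromosome 1 from 118345001 to 118435001 (-0.33). In the first of these, control and exercise rats were at -1.44 and -1.38, so here the sham-operated value alone was high.

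Training was compared with control in the same way. Exercise minus control, H3K9me2 had a median difference of 0.024 log2 (10th to 90th percentile -0.069 to 0.12), beside 0.00033 over all classified bins, and was above 0 in 458 of the 730 regions (62.7%, against 50.1% of all classified bins). Bins low in both marks had a larger median (0.043) and were above 0 in 67.5% of cases. None passed 0.5 log2 (0 of 730), where 0.0487% of all classified bins did. Chosen in sham-operated rats alone, which this comparison does not use, the 1376 regions had a median of 0.059, and chosen in control rats alone, whose column is one side of it, the 549 regions had 0. The largest positive difference was on chromosome 3 from 138025001 to 138275001, where H3K9me2 was -1.47 log2 RPM per kb in control and -0.99 in exercise rats (difference 0.47) and -0.95 and -0.90 in sham-operated and banded aorta rats. The control value alone was low there. The next were on chromosome 18 from 24965001 to 25005001 (0.37) and chromosome 8 from 3165001 to 3205001 (0.34). The largest negative differences were on chromosome 20 from 30715001 to 30745001 (-0.64 in control, -0.95 in exercise rats, difference -0.32), chromosome 13 from 28915001 to 30525001 (-0.28) and chromosome 6 from 140875001 to 140945001 (-0.27). The region on chromosome 13, at 1610 kb, was the 1 long bin among these 12.

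H3K27me3 was compared between the same pairs of groups. Banded aorta minus sham-operated, its median difference over the regions was -0.0036 log2 (10th to 90th percentile -0.15 to 0.091), beside -0.024 over all classified bins. The median was -0.064 in bins low in both marks, -0.0071 in bins high in both and -0.026 in bins with the opposite discordance. In the regions the direction turned with the choice of regions or weights. The median was 0.020 in the 549 regions chosen in control rats alone, 0.027 as a ratio of sums and 0.013 in the 284 regions meeting the rule in each group. In the 730 regions 1 passed 0.5 log2, where 0.0325% of all classified bins did. That region, chromosome 7 from 105735001 to 105845001 (110 kb), had an H3K27me3 density of -0.98 log2 RPM per kb in sham-operated and -1.80 in banded aorta rats (difference -0.82), with -2.58 in control and -2.56 in exercise rats. Its H3K9me2 was -0.80 in sham-operated and -0.64 in banded aorta rats but -1.62 and -1.69 in control and exercise rats, so both marks were higher in the surgery groups, and it met the rule in 1 group alone. The next were on chromosome 1 from 236205001 to 236385001 (-0.39) and chromosome 17 from 68855001 to 68935001 (-0.36). The largest positive ones were on chromosome 6 from 139985001 to 140835001 (0.22), chromosome 7 from 38545001 to 38595001 (0.22) and chromosome 14 from 76105001 to 76195001 (0.20). Exercise minus control, the median was -0.023 log2 (10th to 90th percentile -0.15 to 0.064), beside -0.015 over all classified bins, and it turned to 0.00055 in the regions chosen in control rats alone and to 0.0029 as a ratio of sums. Bins low in both marks had a median further below 0 (-0.081), bins high in both had 0.018 and bins with the opposite discordance had -0.013. Of the 730 regions, 0 passed 0.5 log2, where 0.0487% of all classified bins did (0.0325% higher, 0.0162% lower). The largest positive differences with training were on chromosome 4 from 48175001 to 48245001 (0.27), chromosome 3 from 138025001 to 138275001 (0.25) and chromosome 2 from 218615001 to 218675001 (0.24), and the largest negative ones on chromosome 13 from 89915001 to 90035001 (-0.49), chromosome 4 from 155425001 to 155535001 (-0.37) and chromosome 18 from 57385001 to 57475001 (-0.33). On chromosome 3 both marks were higher in exercise than in control rats, and on chromosome 18 the H3K9me2 difference was -0.04.

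**Figure D5:**
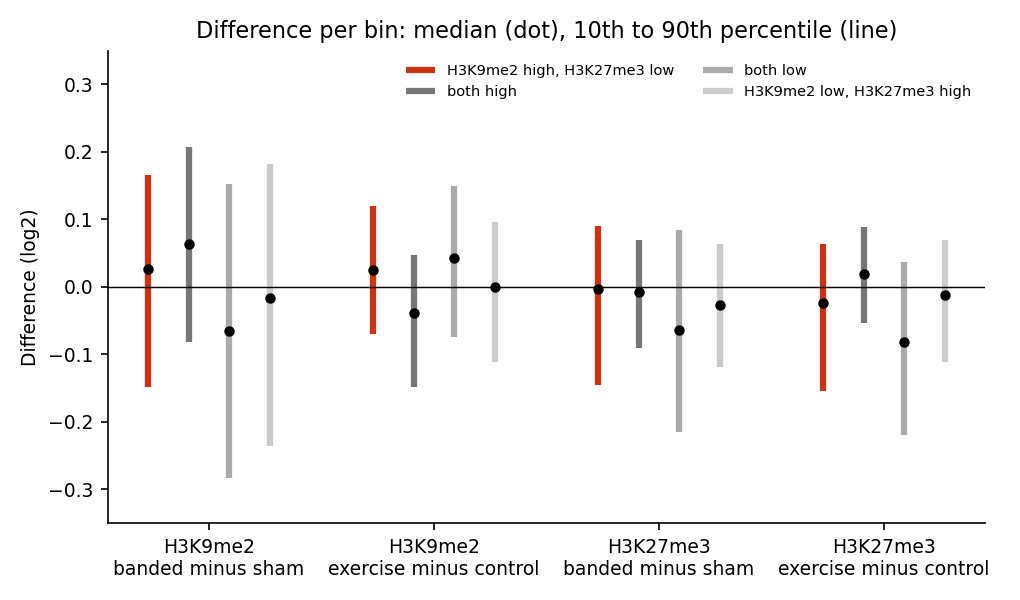
Difference per bin on the log2 scale for each mark and comparison; dots are medians and lines run from the 10th to the 90th percentile of bins (not an error over samples), with the 730 regions in red beside the other classes in grey. The medians of the 730 regions lie between -0.023 and 0.026, and every red line crosses 0.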

How the data were processed

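The authors deposited H3K9me2 (6171 bins) and H3K27me3 (9703 bins) as log2 RPM per genomic bin, 1 column per group. The file names give circular binary segmentation as the origin of the bins. The submitters' processing notes list edgeR, Bowtie, SAMtools and R 2.15.1 but no role for any of them. No source used here gives the genome build, the scaling, which samples set the bin borders or how samples of a group were combined. The sham-operated and banded aorta H3K9me2 values are repeated in another table and were read once.

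H3K27me3 was laid on the H3K9me2 bins by overlap (overlaps of 2 bases or fewer ignored). Bins were classified at the 2 medians, and differences were taken between log2 values. A difference of over 0.5 log2 was counted, with no test. The functions were tested on simulated bins. Named regions are the 10 with the largest excess, 3 on each side of each median, the longest, the longest run, the 3 highest and 3 lowest per comparison and the 3 chromosomes at each end of the ranking; the runs of 4 and the longest regions meeting the rule in every group were added after values were seen. The regions and rules were chosen with earlier results of these data known. Alternatives changed the coverage minimum, the medians, the averaging, the baseline, low values and the fold. The 5 RNA tables were not used here. Work was done in Python 3.11.15 with numpy 2.4.6, pandas 2.3.3, scipy 1.17.1 and matplotlib 3.10.9.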

Additional observations from a re-analysis of the deposited data

How the results depend on the processing

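No paired analysis was possible because each group has 1 column per mark, with no replicate numbers. Of 120 recomputed values, 85 stayed within the limits set (a median within 0.01 log2, a count within 1.5 times, a share within its exact binomial 95% interval). The binomial interval, taken over bins, served as a limit only, since bins are not replicates. The baseline mattered most. With control alone there were 549 regions, of which 76.0% met the rule in banded aorta and 82.9% in exercise rats; the H3K9me2 medians were 0.068 (banding) and 0 (training), the H3K27me3 medians 0.020 and 0.00055, and 0 regions passed 0.5 log2 for H3K27me3 with banding. With sham-operated alone there were 1376 regions, of which 63.4% and 27.9% met it; the H3K9me2 medians were -0.088 and 0.059, the H3K27me3 medians -0.069 and -0.083, and 6 regions passed 0.5 log2 for H3K9me2 with banding. At the 60th and 40th percentiles there were 261 regions, of which 83.1% and 44.1% met the rule; the H3K9me2 training median was 0.037, the H3K27me3 medians were -0.020 and -0.040, and 0 passed for H3K27me3 with banding. With length-weighted medians the H3K27me3 medians were -0.018 and -0.037, with 0 passing. Ratios of sums gave 0.011 and 0.013 for H3K9me2 and 0.027 and 0.0029 for H3K27me3. Without the lowest 10% of bins the H3K27me3 training median was -0.013. The 284 regions meeting the rule in each group (added after seeing the data) gave 0.043 for H3K9me2 with banding, 0.013 and -0.0014 for H3K27me3, and 0 passing; past 1 log2, 0 passed. Apart from the change of regions or weights that each alternative makes, the cause was not tested. Bins of 100 kb or more, also added after seeing the data, gave 542 regions and moved none of these values past the limits. RNA alternatives were not run, because genes were not placed on the bins. Read depth is unknown, so no counting error could be given.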
